A study of Homo sapiens with 4 samples.

Results

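The 48 genes described here are effectors of the interferon response, which were listed by name and read from 4 RNA-seq tables of UMSCC74B cells. All 48 names were found among 29655 gene names, each in 1 row, and all 48 passed the filter on low counts that left 11893 protein-coding genes for testing. UMSCC74B is a human cell line from a head and neck squamous cell carcinoma. The control group was labelled WT and received control shRNA, and the PRMT5 KD group received shRNA against PRMT5, the enzyme that places symmetric dimethyl marks on arginine. Each group had 2 libraries, and all 4 were made from total RNA 72 h after delivery with a directional kit. The labels describe plasmid transfection, while the methods of the study describe lentiviral particles, and the sources used here do not say which applies. No label says that the replicates were separate cultures, and p-values therefore measure the spread between these libraries, which may be technical.

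Interferons are secreted proteins that a cell releases after it senses foreign nucleic acid. They bind receptors that activate JAK kinases, which phosphorylate STAT proteins. With IRF9, the STATs form a complex that binds the interferon-stimulated response element (ISRE) near the start of effector genes. Interferon gamma acts mainly through another element, the gamma-activated site (GAS). The effectors block virus entry, degrade or sequester foreign RNA, or modify proteins with ISG15, and some tumour cells express them without infection.

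The libraries labelled PRMT5 KD were first checked for the targeted gene. PRMT5 stood at 94.2 and 84.2 CPM (counts scaled to a common library size with TMM factors) in control and at 131.9 and 149.4 CPM under the PRMT5 KD label. Its transcript was higher, not lower, by 0.66 on the log2 scale (standard error 0.12, FDR = 0.00549), so every direction below follows the labels only, and without control 2 it was not called (0.58). Counts of a transcript do not measure the protein, for which the study describes an immunoblot of the silenced cells that is not analysed here. Library depth ran from 52185289 to 65964558 counts over all gene names. Ribosomal RNA took 14.2% to 15.3% of them in control and 18.0% to 26.2% under the PRMT5 KD label. The labelled cell type was checked against 9 squamous epithelial markers, of which KRT5 had 0, 0, 0 and 4 counts and KRT6A 0, 1, 0 and 0 in control 1, control 2, PRMT5 KD 1 and PRMT5 KD 2. KRT14, CDH1, EPCAM and KRT17 did not pass the filter. In the same order, KRT14 had 0, 0, 11 and 21.8 counts and KRT17 5, 6, 53 and 71. CDH1 had 9, 4, 2 and 4 counts, and EPCAM 37, 29, 40 and 48. Of the 3 that passed, TP63 and DSG3 were called lower, and DSP was not called (log2 fold change 0.58). Over the 9 squamous markers, levels summed to 76.4 and 66.3 CPM in control and to 50.1 and 77.2 CPM under the PRMT5 KD label. With 3 of 9 past the filter, these markers did not bear out the labelled cell type, and the reason was not tested. Of 7 fibroblast markers, 6 were tested and all 6 were called lower, with summed levels of 632 and 732 CPM in control against 87.7 and 97.3 CPM. Leukocyte markers PTPRC, CD3E and CLEC4C had 0 to 5 counts per library. Of the 11 leukocyte markers, CD14 was called lower (34.6 and 39.9 against 1.07 and 1.86 CPM) and CD68 higher (94.5 and 113 against 152 and 169 CPM). Of 4 endothelial markers, PECAM1 was the 1 tested and was called lower (7.39 and 9.77 against 0.29 and 0.15 CPM). Under the filter, VWF had 102 and 205 counts against 34 and 15, and CDH5 4 and 8 against 0 and 0. KDR, also under it, had 34 and 36 counts against 52 and 33. The part of these shifts in the results on effector genes was not tested, and in bulk RNA fewer cells of a type cannot be told apart from less RNA per cell.

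Promoter sequences are shown first, since the ISRE is the element through which these genes are known to be switched on together. RefSeq windows from 250 bases before to 50 bases after the annotated start (GRCh38.p14) were found for 39 of the 48 genes, in 52 windows. IFIT2, IFITM2, MX2, OAS2, OASL, USP18, TRIM22, UBA7 and GBP2 had no window. The ISRE core searched was GAAA, any 2 bases and GAAA again, on both strands, with overlapping matches counted. It occurred in a window of 31 of the 39 genes (79.5%), against 659 of 15843 protein-coding genes (4.16%). Counted by window, it was in 36 of 52 (69.2%), against 3.57% of all 35116 windows. The GAS core TTCNNNGAA was found in 12 of the 39 (30.8%), against 8.98% of protein-coding genes. The stretches below are written 5′ to 3′ on the strand of the gene, with the ISRE cores in capitals, in the order of the log2 fold change between the groups. They show called genes of several families, and IFIT1, DDX60 and PARP14 as genes that hold the core and were not called.
RSAD2, chr2:6877607-6877666 on the plus strand: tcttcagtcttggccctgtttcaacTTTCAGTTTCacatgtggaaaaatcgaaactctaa
ISG15, chr1:1013362-1013421 on the plus strand: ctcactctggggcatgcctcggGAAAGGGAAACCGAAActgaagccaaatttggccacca
IFI6, chr1:27672266-27672358 on the minus strand: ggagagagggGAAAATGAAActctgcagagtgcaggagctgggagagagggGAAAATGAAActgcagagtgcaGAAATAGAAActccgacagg
GBP1, chr1:89065301-89065360 on the minus strand: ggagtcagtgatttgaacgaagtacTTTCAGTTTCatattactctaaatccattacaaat
IFIT3, chr10:89327831-89327894 on the plus strand: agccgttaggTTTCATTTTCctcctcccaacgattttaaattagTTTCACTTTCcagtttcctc
IFIT1, chr10:89392488-89392547 on the plus strand: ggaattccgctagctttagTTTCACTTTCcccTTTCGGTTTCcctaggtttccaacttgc
MX1, chr21:41420544-41420603 on the plus strand: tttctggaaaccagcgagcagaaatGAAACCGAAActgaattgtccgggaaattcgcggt
DDX60, chr4:168318786-168318850 on the minus strand: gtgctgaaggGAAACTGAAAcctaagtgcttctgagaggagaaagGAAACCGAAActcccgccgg
PARP14, chr3:122680785-122680844 on the plus strand: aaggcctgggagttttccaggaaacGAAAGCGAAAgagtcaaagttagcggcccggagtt

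**Figure D1:**
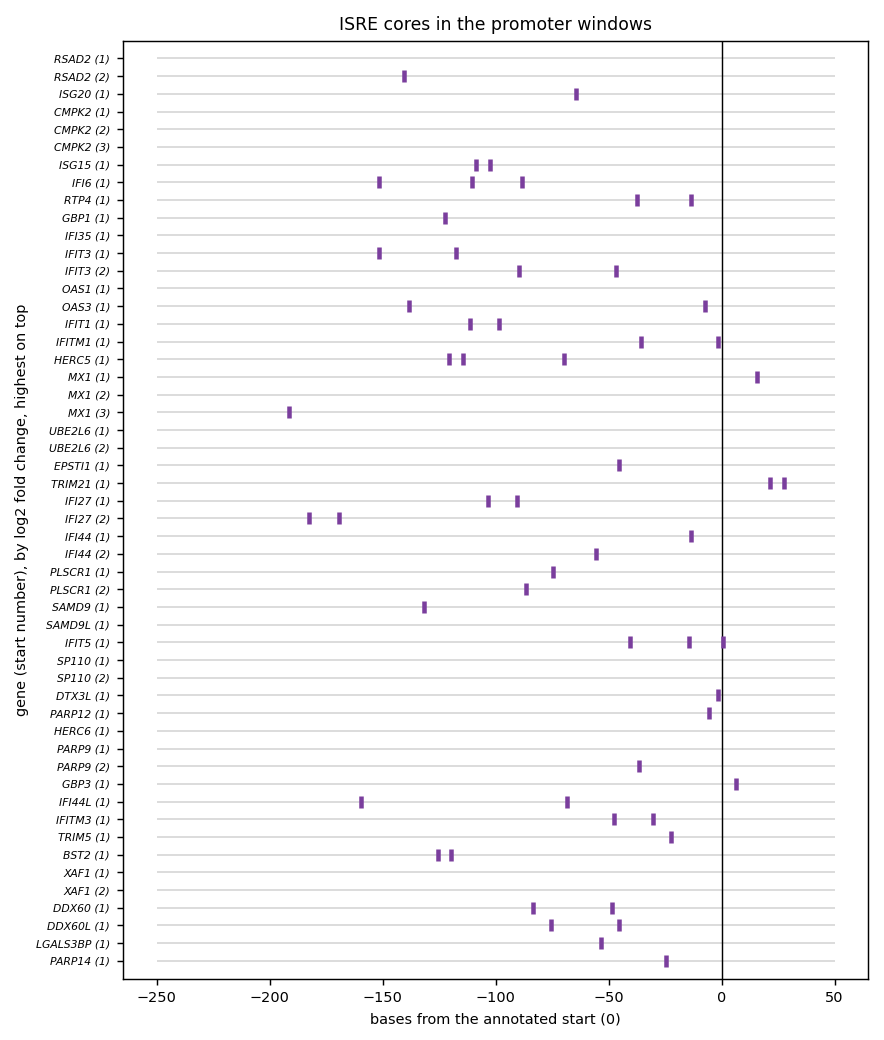
Position of each ISRE core in the 52 promoter windows of 39 genes, with bases from the annotated start on the horizontal axis and 1 row per annotated start, ordered by log2 fold change with the highest on top. Of the 57 matches, 53 begin within 200 bases before the start, which are most of each window. Rows without a core occur from the top of the order down to XAF1, and the rows below XAF1 all hold one.

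Some windows overlap, and the 57 matches to the ISRE core stand for 52 distinct places in the genome. Of the 57 matches, 53 began within the 200 bases before the start, and 16 of the 39 genes had 2 or more cores in a window. Those 200 bases are most of the window searched, and neither count was compared with all promoters. In ISG15 the 2 cores overlap, as the capitals show, and IFI6 carries 3. RSAD2 has its core at the second of 2 annotated starts and none at the first. No match was found in the windows of OAS1, CMPK2, XAF1, SP110, HERC6, SAMD9L, UBE2L6 and IFI35, which says only that these letters are not there. The 31 genes with a core had a median log2 fold change of 1.24 (range 0.14 to 3.99) and the 8 without one 1.25 (range 0.49 to 2.75). Genes with and without the letters thus had nearly the same median change.

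The 48 genes as a list were mostly higher in the libraries labelled PRMT5 KD, and none was called lower. A gene was called where the FDR (Benjamini-Hochberg, over all 11893 genes tested with edgeR) was under 0.05 and the log2 fold change was at least 0.5 in size. By that rule 36 of 48 (75.0%) were called higher, where 21.2% of all genes tested were called higher and 24.4% lower. The list was chosen with earlier results of these data known, so the contrast with all genes is a description and not a test. At a log2 fold change of at least 1, 30 of the 48 (62.5%) were called higher and none lower, against 8.64% and 12.8% of all genes. In 41 of 48 (85.4%) both PRMT5 KD libraries lay above both control libraries, against 39.9% of all genes. The median log2 fold change was 1.31 over the 48 and -0.01 over all genes tested, and GBP2 was the 1 gene below 0. Together the 48 genes summed to 13030 and 8104 CPM in control and to 21560 and 30880 CPM under the PRMT5 KD label. The controls were not silent for these genes, and PARP14 had 1339 and 840 CPM there. By mean RPKM (CPM per kilobase of the joined exons of all annotated transcripts), IFI6 was highest in both groups. It had 394.7 in control and 1711 under the PRMT5 KD label. The joined exons can be longer than any transcript, as in LGALS3BP with 3422 bases against 2202 in its longest transcript. The order by transcript length was not examined. ISG20 was lowest in control, at a mean RPKM of 1.29.

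**Figure D2:**
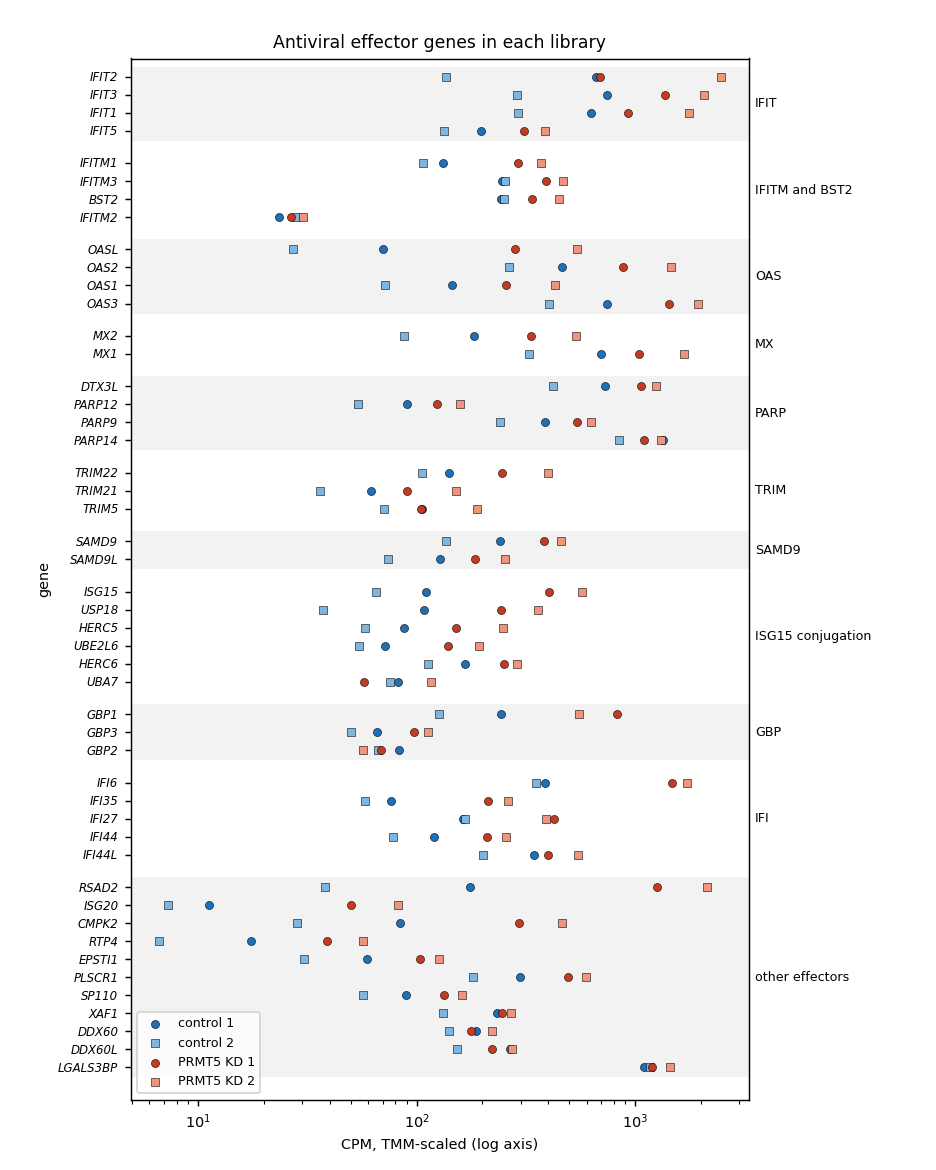
CPM of each of the 48 genes in the 4 libraries (log axis), grouped by family and ordered by log2 fold change within each. Circles are replicate 1 and squares replicate 2, blue for control and red for PRMT5 KD. In 36 of 48 rows the order from left to right is control 2, control 1, PRMT5 KD 1, PRMT5 KD 2, which was not counted over all genes.

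The spread between replicates was wide for these genes and had a direction. Control 1 lay above control 2 in 43 of 48 genes, with a median difference of 0.74 on the log2 scale, where the median absolute difference over all genes tested was 0.13. PRMT5 KD 2 lay above PRMT5 KD 1 in 45 of 48, with a median difference of 0.38. Over all genes tested, control 1 was the higher control in 46.95% and PRMT5 KD 2 the higher of its group in 50.1%. In 36 of 48 genes the libraries stood in the same order, with control 2 lowest, then control 1, PRMT5 KD 1 and PRMT5 KD 2. That order was not counted over all genes tested. Of these, 39.9% had both PRMT5 KD libraries above both controls, whatever the order within a group. IFIT2 had the widest gap in both groups, 2.28 between the controls and 1.83 between the PRMT5 KD libraries. RSAD2, CMPK2 and USP18 followed in control, at 2.21, 1.56 and 1.53. The control gap and the PRMT5 KD gap had a Pearson's r of 0.52 and a Spearman's rho of 0.44 across the 48 genes, which share the same 4 libraries and are not independent. Over all genes tested the same r was 0.098. GBP1 went against the pattern in the PRMT5 KD libraries (-0.57), as did GBP2 (-0.28) and IFI27 (-0.11).

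**Figure D3:**
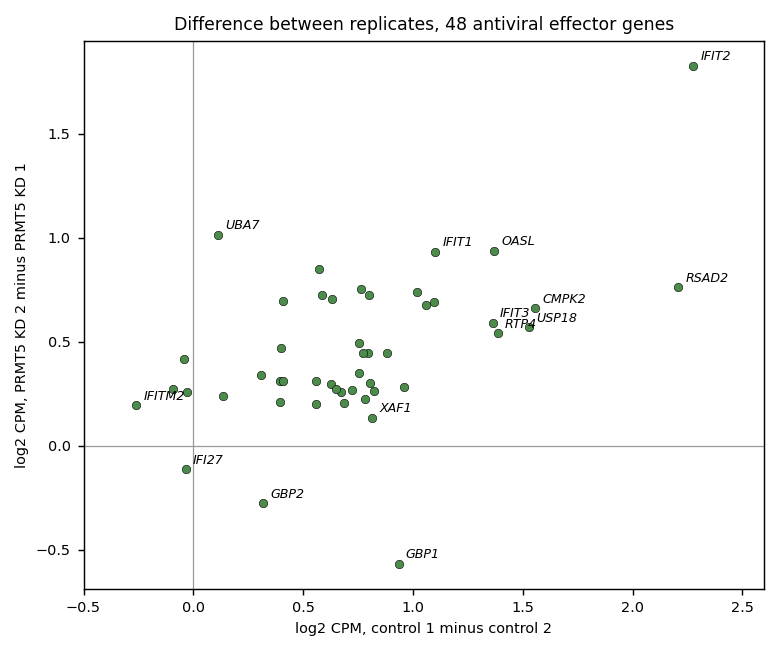
Difference in log2 CPM between the 2 control libraries (horizontal axis) and between the 2 PRMT5 KD libraries (vertical axis), 1 point per gene. Most points lie right of 0 and above 0, IFIT2 lies farthest out on both axes, and GBP1, GBP2 and IFI27 lie below the horizontal line.

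The number of calls changed when 1 library was left out. Each of these fits leaves 1 group with a single library, which is assumed to vary like the other group, and has fewer degrees of freedom, so a lost call is not by itself a smaller change. Over all genes tested, 3901 and 3135 were called without control 1 and control 2, and 5704 and 5536 without PRMT5 KD 1 and PRMT5 KD 2, against 5418 with all libraries. Without control 1, 37 of the 48 were called higher, without control 2, 18, without PRMT5 KD 1, 21, and without PRMT5 KD 2, 14, with none lower in any of these fits. The median log2 fold change ranged from 0.96 without control 2 to 1.61 without control 1. Of the 36 called genes, 9 were called in all 4 of these fits, namely ISG20, ISG15, IFI6, IFI35, IFITM1, UBE2L6, IFI27, IFI44 and GBP3. Those 9 were also called under each of the other tests, scalings, filters and corrections tried.

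**Figure D4:**
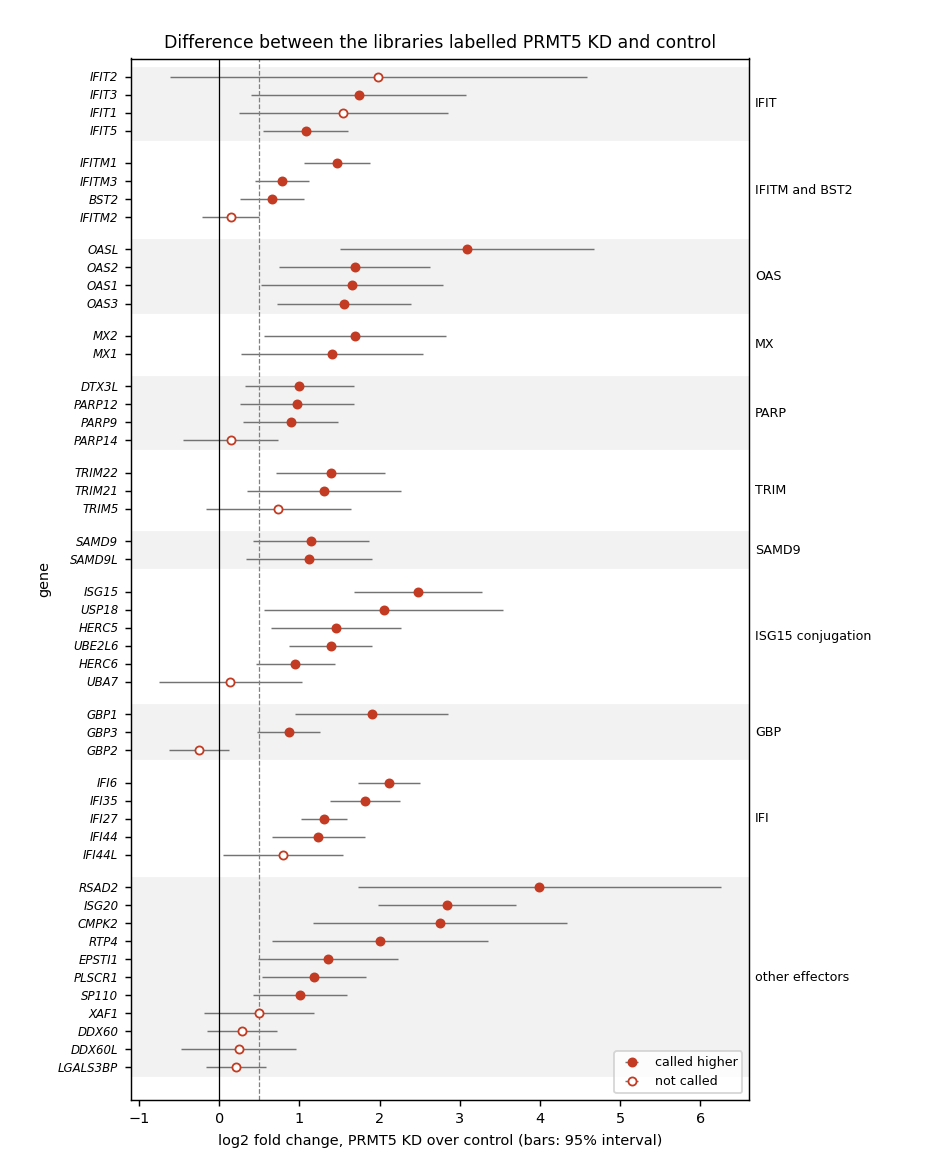
Log2 fold change of the 48 genes, PRMT5 KD over control, with the 95% interval of the fit as bars, by family; filled points were called higher, the solid line marks 0 and the dashed line 0.5. The points of 47 genes lie above 0, and the intervals of IFIT2 and RSAD2 are among the widest while those of IFI27 and IFI6 are narrow.

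The IFIT proteins bind foreign RNA ends and hold back its translation. IFIT2, IFIT3, IFIT1 and IFIT5 lie together on chromosome 10 between 89283694 and 89421605, with IFIT1B between IFIT3 and IFIT1. IFIT3 and IFIT5 rose, and IFIT1 and IFIT2 were not called. IFIT2 was measured at 661 and 136 CPM in control and at 694 and 2462 CPM under the PRMT5 KD label. Its groups did not overlap, but control 1 and PRMT5 KD 1 were nearly level, and the log2 fold change of 1.98 had a standard error of 0.98 (FDR = 0.152, 95% interval -0.61 to 4.58). IFIT1 had 626 and 292 CPM in control against 923 and 1763 CPM. At 1.55 in log2 (standard error 0.49, FDR = 0.0521), IFIT1 missed the threshold by little, and DESeq2 called it (FDR = 0.0465). IFIT3 went from 744 and 289 CPM to 1375 and 2071 CPM (log2 fold change 1.74, standard error 0.51, FDR = 0.0409). IFIT5, from 197 and 134 CPM to 312 and 386 CPM, moved less but with less spread (1.08, standard error 0.22, FDR = 0.00833). The call on IFIT3 was lost without control 2 (1.21), PRMT5 KD 1 (2.04) or PRMT5 KD 2 (1.42), and that on IFIT5 without control 2 (0.82), while IFIT1 was called without control 1 (2.20). Exons of IFIT2 and IFIT3 share 65 and 94 bases with those of LIPA on the opposite strand, and whether the counting used strand is not stated.

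IFITM proteins sit in membranes and block the fusion of virus and cell, and BST2 (tetherin) holds budding virus at the surface. IFITM1 rose from 133 and 107 CPM to 292 and 370 CPM, or 1.47 in log2 (standard error 0.17, FDR = 0.00104). IFITM3 (0.78, FDR = 0.00441) and BST2 (0.66, FDR = 0.0162) rose too. IFITM2 was level, at 23.5 and 28.1 CPM in control and 26.6 and 30.4 CPM under the PRMT5 KD label, and its groups overlapped (0.14, 95% interval -0.21 to 0.50, FDR = 0.447). Its neighbours in the IFITM locus on chromosome 11, from 303655 to 329475, are close paralogs. The estimates of all 3 carried decimals in every library, so their values are uncertain where reads were divided, and with which entries they were divided was not tested. IFITM2 was at -0.07 after a correction for length and GC content, without a call. That correction also ended the call on BST2 (0.26), which was lost as well without control 1 (0.64), control 2 (0.68) or PRMT5 KD 2 (0.44). IFITM3 lost its call without control 1 (0.77) or control 2 (0.80).

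The oligoadenylate synthetases sense double-stranded RNA and make the messenger that activates RNase L, and OASL is a relative that lacks this activity. All 4 rose. OASL had the largest change of the family, from 70.2 and 27.2 CPM in control to 284 and 543 CPM, or 3.09 in log2 (standard error 0.60, FDR = 0.0129). OAS1, OAS3 and OAS2 adjoin each other on chromosome 12 from 112905856 to 113011723, and their changes were close together at 1.655, 1.56 and 1.69 in log2, with an FDR of at most 0.0295. In level per length OASL was among the lowest of the 48 in control, at a mean RPKM of 7.71, and stood at 65.4 under the PRMT5 KD label. OAS2 and OAS3 had 462 and 265 CPM and 743 and 403 CPM in control, against 883 and 1461 CPM and 1430 and 1945 CPM. Calls were lost without control 2 for OAS1 (1.23) and OAS2 (1.34), without PRMT5 KD 1 for OAS1 (2.01) and OASL (3.52), and without PRMT5 KD 2 for OAS1 (1.245), OAS2 (1.29), OAS3 (1.33) and OASL (2.55).

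The MX proteins are dynamin-like GTPases that trap viral nucleocapsids. MX2 rose from 182 and 87.6 CPM to 336 and 536 CPM, or 1.69 in log2 (standard error 0.43, FDR = 0.0278). MX1 rose from 698 and 327 CPM to 1038 and 1673 CPM (1.40, standard error 0.44, FDR = 0.0465), the highest FDR among the 36 called genes. Both lie on chromosome 21 between 41361999 and 41470071, and 562 exon bases of MX1 are shared with TMPRSS2 on the opposite strand. Without control 2 neither was called (MX1 0.96, MX2 1.26), nor without PRMT5 KD 1 (1.74 and 2.03) or PRMT5 KD 2 (1.02 and 1.32). MX1 was also not called with upper quartile factors (FDR = 0.0554), with the filterByExpr filter (FDR = 0.0564) or over all gene names (FDR = 0.0526).

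PARP9 and its partner DTX3L, a ubiquitin ligase, act together, and PARP12 and PARP14 are ADP-ribosyltransferases of the interferon response. DTX3L rose from 727 and 423 CPM to 1060 and 1240 CPM, or 1.00 in log2 (standard error 0.27, FDR = 0.0252). PARP9, its neighbour on the opposite strand of chromosome 3 with 139 shared exon bases, had 0.89 (FDR = 0.0232), and PARP12 had 0.97 (FDR = 0.0339). PARP14, in the same stretch of chromosome 3, had 1339 and 840 CPM in control and 1094 and 1309 CPM under the PRMT5 KD label. Control 1 was its highest library, the groups overlapped, and the change of 0.14 was not called (95% interval -0.46 to 0.74, FDR = 0.65). Without control 2 the value of PARP14 was -0.16. PARP9, PARP12 and DTX3L each lost the call without control 2 (0.59, 0.64 and 0.66), PRMT5 KD 1 (1.03, 1.17 and 1.145) or PRMT5 KD 2 (0.79, 0.79 and 0.89).

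TRIM proteins are ubiquitin ligases, of which TRIM5 recognises retroviral capsids and TRIM21 binds antibody inside cells. TRIM22 rose from 140 and 106 CPM to 246 and 398 CPM, or 1.39 in log2 (standard error 0.27, FDR = 0.00919). TRIM21 rose by 1.31 (FDR = 0.0356). TRIM5, whose locus on chromosome 11 spans TRIM22, had 105 and 70.8 CPM in control against 105 and 189 CPM, so PRMT5 KD 1 was level with control 1, and it was not called (0.74, 95% interval -0.16 to 1.64, FDR = 0.133). DESeq2 called TRIM5 (0.75, FDR = 0.0282), as did the fit without PRMT5 KD 1 (1.14). TRIM22 lost the call without control 2 (1.20), and TRIM21 without control 2 (0.97), PRMT5 KD 1 (1.67) or PRMT5 KD 2 (0.89) and after the length and GC correction (1.10).

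SAMD9 and SAMD9L, adjacent on chromosome 7 from 93099513 to 93148385, restrict poxviruses and cell growth. SAMD9 rose from 242 and 137 CPM to 382 and 457 CPM (1.15, standard error 0.29, FDR = 0.021), and SAMD9L from 128.5 and 74.0 CPM to 186 and 253 CPM (1.12, standard error 0.31, FDR = 0.0299). Their changes differed by less than either standard error. Both lost the call without control 2 (0.79 and 0.77), PRMT5 KD 1 (1.31 and 1.36) or PRMT5 KD 2 (1.02 and 0.88).

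ISG15 is a ubiquitin-like protein, which UBA7 activates, UBE2L6 carries, HERC5 attaches to targets and USP18 removes. ISG15 rose from 110 and 65.3 CPM to 405 and 570 CPM, or 2.48 in log2 (standard error 0.31, FDR = 0.00239). USP18 rose by 2.05 (FDR = 0.0353), HERC5 by 1.46 (FDR = 0.0145), UBE2L6 by 1.39 (FDR = 0.00316) and HERC6, a relative of HERC5, by 0.95 (FDR = 0.00983). The activating enzyme UBA7 was not called, at 82.1 and 75.9 CPM in control and 57.6 and 116 CPM under the PRMT5 KD label. The PRMT5 KD libraries of UBA7 lay on either side of the controls (0.14, 95% interval -0.75 to 1.03, FDR = 0.753). Its value was -0.45 without PRMT5 KD 2, and it was called higher without PRMT5 KD 1 (0.60, FDR = 0.00318). HERC5 and HERC6 lost the call without control 2 (1.19 and 0.69), and USP18 without PRMT5 KD 1 (2.34) or PRMT5 KD 2 (1.74). USP18 was also not called with the filterByExpr filter (FDR = 0.0595) or over all gene names (FDR = 0.0633). Estimates for USP18 carried decimals in all 4 libraries.

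The guanylate-binding proteins are large GTPases that are best known as targets of interferon gamma and that coat pathogens and their vacuoles. The 3 genes lie together on chromosome 1 from 89006679 to 89150456 and did not move together. GBP1 rose from 243 and 127 CPM to 824 and 556 CPM, or 1.90 in log2 (standard error 0.37, FDR = 0.0107). GBP3 rose from a mean of 57.9 ± 11.1 CPM to 105.5 ± 10.9 CPM (SD, n = 2; 0.87, standard error 0.16, FDR = 0.00556). GBP2 had 83.1 and 66.7 CPM in control and 68.8 and 56.8 CPM under the PRMT5 KD label, with overlapping groups and no call (-0.25, 95% interval -0.63 to 0.12, FDR = 0.209). The value of GBP1 was 1.63 without PRMT5 KD 1 and 2.16 without PRMT5 KD 2, and it was called in neither fit. Estimates of GBP1 and GBP3 carried decimals in 4 libraries and those of GBP2 in 3, and which entries shared reads with them was not tested. Exons of GBP2 share 621 bases with GBP7 on the same strand.

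The genes named IFI were found as interferon-inducible transcripts, and IFI6 is a protein of the endoplasmic reticulum that hinders flavivirus replication. IFI6 rose from 387 and 352 CPM to 1468 and 1735 CPM, a log2 fold change of 2.12 with a standard error of 0.16 (FDR = 0.000341, the lowest of the 48). IFI35 rose by 1.82 (FDR = 0.000677), IFI27 by 1.31 (FDR = 0.00052) and IFI44 by 1.24 (FDR = 0.00741). IFI27, at 163 and 167 CPM in control and 424 and 392 CPM under the PRMT5 KD label, had the closest control libraries among these 5 genes. IFI44L, the neighbour of IFI44 on chromosome 1, had 343.5 and 201 CPM against 400.5 and 545 CPM. Its groups did not overlap, and it was not called (0.80, standard error 0.30, FDR = 0.0686). IFI44L was called without control 1 (1.23), by DESeq2 (0.81, FDR = 0.0082), after the length and GC correction (1.06) and with scaling by total counts (0.98).

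The remaining 11 genes have varied roles, and 7 of them rose. RSAD2 encodes viperin, which makes a chain-terminating nucleotide, and it had the largest change of the 48. It went from 175.5 and 38.0 CPM in control to 1257 and 2132 CPM, or 3.99 in log2 (standard error 0.85, FDR = 0.0173). Both controls lay far below both PRMT5 KD libraries, although they differed from each other by 2.21 on the log2 scale. CMPK2, a nucleotide kinase whose start lies beside that of RSAD2 on chromosome 2, rose from 84.0 and 28.5 CPM to 293.5 and 464 CPM (2.75, standard error 0.60, FDR = 0.0181). The exons of RSAD2 and CMPK2 share 351 bases on opposite strands. ISG20, an exonuclease that degrades RNA, rose from 11.3 and 7.27 CPM to 50.2 and 82.0 CPM (2.84, standard error 0.33, FDR = 0.0021).

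RTP4 (2.005, FDR = 0.0285), EPSTI1 (1.355, FDR = 0.0234), PLSCR1 (1.18, FDR = 0.0122), a membrane scramblase that blocks virus entry, and SP110 (1.01, FDR = 0.0152), a nuclear body protein, completed the 7. Without PRMT5 KD 1 calls were lost for RSAD2 (4.355), CMPK2 (3.08), EPSTI1 (1.53) and RTP4 (2.29), and without PRMT5 KD 2 for RSAD2 (3.56), CMPK2 (2.39), EPSTI1 (1.21), RTP4 (1.72), PLSCR1 (1.05) and SP110 (0.87). SP110 was not called without control 2 either (0.72). RTP4 was not called after the length and GC correction (1.64).

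XAF1, DDX60, DDX60L and LGALS3BP were the 4 of these 11 without a call. XAF1, which promotes cell death, had 233 and 133 CPM in control and 246 and 270 CPM under the PRMT5 KD label (0.49, 95% interval -0.19 to 1.18, FDR = 0.177), and it was called without control 1 (0.96). DDX60, a helicase related to the RNA sensors, had 187 and 141 CPM against 178 and 221.5 CPM (0.29, 95% interval -0.15 to 0.72, FDR = 0.217). DDX60L, its neighbour on chromosome 4, had 267 and 153 CPM against 222 and 274 CPM (0.24, 95% interval -0.48 to 0.96, FDR = 0.508). For both helicases the groups overlapped, since PRMT5 KD 1 lay below control 1. The length and GC correction brought DDX60 to a call (0.67), and DDX60L was at -0.11 without control 2. LGALS3BP, a secreted glycoprotein, had 1099 and 1170 CPM in control and 1188 and 1436 CPM under the PRMT5 KD label, and in control its mean RPKM of 331.5 was second to that of IFI6. Its groups did not overlap, but the difference was small (0.21, 95% interval -0.17 to 0.59, FDR = 0.2945).

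The genes upstream of these effectors were taken from a list of ligands, receptors, kinases, transcription factors, sensors and restraints, of which 55 were in the tables and 32 passed the filter. Of the 32, 8 were called higher and 3 lower, where 21.2% and 24.4% of all genes tested were. The share called higher was thus near the background, and the share called lower was below it. Their median log2 fold change was 0.18, and the difference from the effectors was not tested. Interferon transcripts were scarce. IFNB1 was listed with 18 and 2 counts in the controls against 22 and 8, so its groups overlapped. IFNL1 had 7 and 1 counts against 24 and 1, and IFNG had 1 and 1 against 27 and 4. None of the 13 interferon alpha genes, nor IFNK, IFNW1, IFNL2 or IFNL3, had more than 3 counts in any library, which is also the upper limit that a count of 0 allows. IFNE, a constitutive epithelial interferon, was the 1 ligand tested, and it fell from 17.7 and 12.9 CPM to 1.26 and 2.13 CPM (log2 fold change -3.17, standard error 0.30, FDR = 0.00062).

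**Figure D5:**
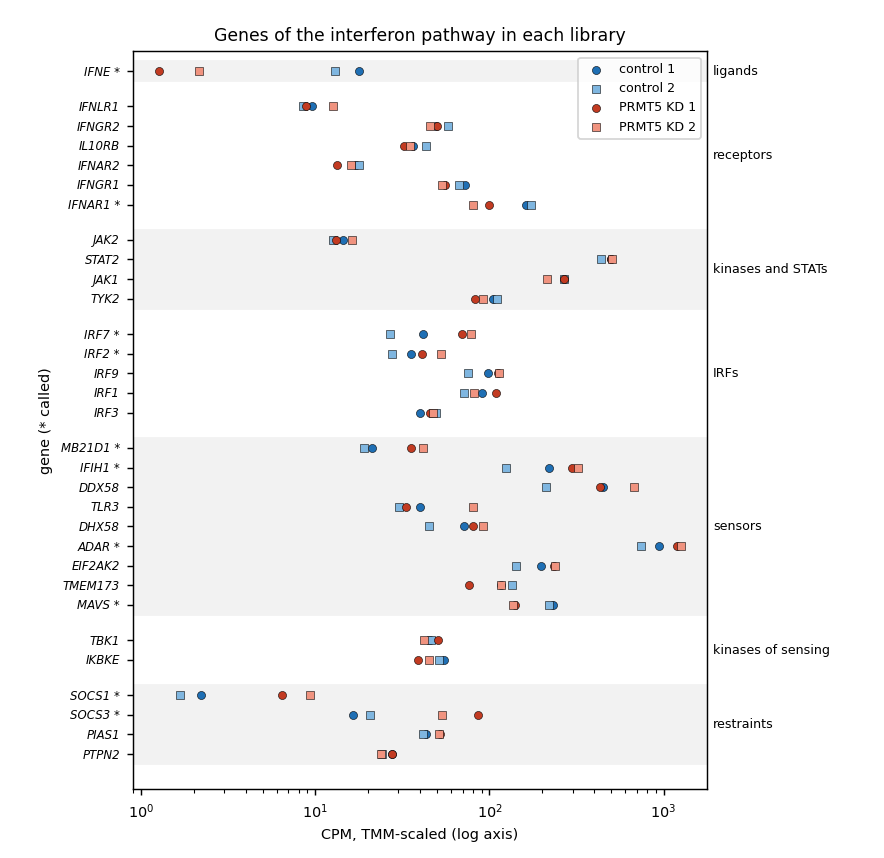
CPM of the tested genes of the interferon pathway reported here in the 4 libraries (log axis), by role, with an asterisk on called genes. IRF7, SOCS1 and SOCS3 lie to the right in both PRMT5 KD libraries, while IFNE, IFNAR1 and MAVS lie to the left.

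Among the receptors, IFNAR1, a chain of the receptor for type I interferon, fell from 163 and 173 CPM to 99.0 and 80.0 CPM (-0.91, standard error 0.14, FDR = 0.00245), and the other 5 were not called. STAT2 (0.11, FDR = 0.51), JAK1, JAK2 and TYK2 were not called. IRF7, a factor that is itself induced by interferon, rose by 1.115 (FDR = 0.0081) and IRF2 by 0.58 (FDR = 0.0356), while IRF9 was not called (0.37, FDR = 0.0756). Of the sensors, MB21D1 (now named CGAS, a sensor of DNA) rose by 0.93 (FDR = 0.00234), IFIH1 (MDA5) by 0.84 (FDR = 0.0482) and ADAR by 0.54 (FDR = 0.0334). MAVS, the adaptor of the RNA sensors, was lower in both PRMT5 KD libraries, at 141 and 137 CPM against 233 and 221 CPM (-0.71, FDR = 0.00261). The RNA sensor DDX58 (now named RIGI) had 447 and 210 CPM in control and 429 and 677 CPM under the PRMT5 KD label, with overlapping groups and no call (0.75, FDR = 0.2005). The feedback inhibitors SOCS1 and SOCS3 rose by 2.03 (FDR = 0.00168) and 1.92 (FDR = 0.00232), SOCS3 from 16.5 and 20.5 CPM to 85.7 and 53.7 CPM. Without control 2, which leaves a single control library, fewer pathway genes were called, and so were fewer of all genes tested.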

How the data were processed

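Total RNA of UMSCC74B cells was sequenced in 4 libraries, 2 per group. The authors deposited estimated counts per gene, without normalization, in 1 table per library. The submitters' processing notes name FastQC, Trim Galore, STAR, Salmon and DESeq2 on GRCh38, and the methods of the study name STAR and FeatureCounts on protein-coding genes; which of them made the estimates is not stated. Of 29744 entries, 28 date-like names (0.150% to 0.161% of counts) were left out, and rows of the same name were summed. Names were matched to GENCODE release 44 by current symbol (21877), or by a unique older symbol (1557).

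Counts were rounded. Of 18846 protein-coding names, the 11893 that reached 0.5 RPKM in both control or both PRMT5 KD libraries were tested with the quasi-likelihood test of edgeR 4.0.16 (TMM factors, robust dispersion, R 4.3.3), without a replicate term. RPKM used union exon lengths. Standard errors and 95% intervals follow from each F statistic and its log2 fold change. The thresholds were 0.05 for the FDR and 0.5 for the size of the log2 fold change. Counts of 11893 genes were simulated for the comparison of the 2 groups, with 200 genes changed and the spread usual for genes of each level. There the test recovered 91.0% of genes changed by 1 on the log2 scale, and 7.28% of its calls were unchanged genes. In the data 5418 genes were called, and the 48 genes differed more between replicates than most genes did. Those rates therefore do not carry over to the 48 genes. The members and lists were chosen with earlier results of these data known. By rule, the gene with the largest change in each family and the genes not called are given in every library, and pathway genes are named where called or at most at 3 counts in all libraries. Further values of called genes, and STAT2, IRF9, DDX58, IFNB1, IFNL1 and IFNG, were chosen after they were seen. The pathway, marker and family lists were written from general knowledge. Log2 CPM used a prior count of 2. The alternatives were DESeq2 1.42.0, other scalings and filters, all gene names, non-robust dispersion, a replicate term, a spline offset (4 degrees of freedom) for exon length and GC content, a fold change threshold of 1, and each library left out. Counting error alone is covered by any statement on low counts. With 2 libraries against 2, a permutation of labels cannot reach a p of 0.05. A marker and a pathway gene are counted in their lists and not reported here by name.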

Additional observations from a re-analysis of the deposited data

How the results depend on the processing

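Over the alternatives that kept all 4 libraries and the threshold of 0.5, 25 to 39 of the 48 genes were called higher. The 25 were without a filter on low counts, where 2939 of 16799 genes tested were called higher. The 39 were with DESeq2, where 2614 of 11893 were. None of the 48 was called lower in any, and their median log2 fold change ranged from 1.26 to 1.49. Without a filter on low counts, IFIT3, OAS1, OASL, MX1, MX2, TRIM21, USP18, RSAD2, CMPK2, EPSTI1 and RTP4 lost their calls. That fit called 6179 of 16799 genes in either direction, against 5418 of 11893 with the filter, and why these calls were lost was not tested. The filterByExpr filter ended the calls on IFIT3 (FDR = 0.0510), MX1 and USP18, all gene names those on MX1 and USP18, and upper quartile factors that on MX1. Total counts alone moved the median of all genes tested to 0.17 and made 61.5% of all calls higher, against 46.5%. The replicate numbers were not taken as pairs, since no source says that they are and same-numbered libraries deviated with a correlation of -0.098. Adding a replicate block gave 5190 called genes, 34 of the 48 and 9 pathway genes, and MX1 (1.465, FDR = 0.0619) and TRIM21 (1.31, FDR = 0.0522) lost their calls. At a log2 fold change of at least 1, 2556 genes in either direction and 4 pathway genes were called, by its own construction, in place of 5418 and 11. With each library left out, the genes called numbered 3135 to 5704, those among the 48 14 to 37, and those of the pathway 7 to 13, and PRMT5 had a log2 fold change of 0.57 to 0.78, not called without control 2 (0.58). IFITM2 turned to -0.0713 with the length and GC offset and to -0.0714 with the replicate block added, and neither was called. With each library left out, UBA7 ranged from -0.45 (without PRMT5 KD 2, FDR = 0.0207, under the fold threshold) to 0.60, PARP14 from -0.16 to 0.52 and DDX60L from -0.11 to 0.70, both lowest without control 2 and not called there. With 2 libraries a group, outlying libraries were not tested for.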

Other observations

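The protein-coding genes that directly flank the 48 in RefSeq order, a set chosen after the values of the 48 were seen, numbered 64, and 32 of them were tested. Of these, 7 (21.9%) were called higher and 9 (28.1%) lower, with a median log2 fold change of -0.17, against 21.2% and 24.4% of all genes tested. LIPA, a lysosomal lipase gene that overlaps IFIT2 and IFIT3 on the opposite strand, was called lower (-1.55, FDR = 0.000797 from edgeR). PTGFR, the prostaglandin F receptor gene beside IFI44L, was called lower as well (-2.41, FDR = 0.000575). HES4 beside ISG15 (2.22, FDR = 0.00084) and SP140 beside SP110 (0.82, FDR = 0.00364) were called higher. TRIM6 (0.46, FDR = 0.0814) and TRIM34 (0.32, FDR = 0.387), which lie next to TRIM5 and TRIM22, were not called.

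The 48 genes hold 12 places in the genome where 2 or more of them lie within 500 kb of the next, with 30 genes in all. All genes of a place were called higher for CMPK2 with RSAD2, HERC5 with HERC6, SAMD9 with SAMD9L, OAS1 with OAS2 and OAS3, and MX1 with MX2. Neither DDX60 nor DDX60L was called. The other 6 places held genes with and without a call.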
